A study of Mus musculus with 9 samples.

Results

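The Hox cluster genes are the homeobox genes of the Hoxa, Hoxb, Hoxc and Hoxd clusters, and they were taken as every gene symbol of the array annotation made of one of these 4 prefixes and a number. This gave 33 genes on 48 probe sets, out of 18193 genes on 34945 probe sets that carried a single symbol. Cluster A had 9 of them, cluster B 9, cluster C 7 and cluster D 8, and the 6 further genes of these clusters in the RefSeq gene table were not analysed here. Their levels were measured on 9 Affymetrix arrays of laser-captured bladder layers from newborn mice, with 3 arrays each for urothelium (the lining epithelium), detrusor (the smooth muscle coat) and stroma (the tissue between them). All animals were FVB/N mice carrying the SMGA/EGFP transgene, a reporter for the smooth muscle gamma actin gene Actg2, at postnatal day 1 or 2 and of unrecorded sex, so there was no group without the transgene. Urothelium had 1 array from day 1 and 2 from day 2, detrusor 2 and 1, and stroma 1 and 2. No sample was pooled, and the labels do not tie arrays to animals, so p-values measure only the spread between these arrays, which may be technical.

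Hox genes encode transcription factors that bind DNA through a homeodomain and give cells their position along the body axis. Within each cluster the genes lie in the order of their paralogue group, numbered up to 13, and the low-numbered genes act towards the head and the high-numbered ones towards the tail. Genes of the same number in different clusters are paralogues, descended from one ancestral gene. The bladder forms at the tail end of the trunk from the urogenital sinus, where the highest-numbered genes of clusters A and D are known to act, and Hox proteins work with cofactors of the Meis, Pbx and Tshz families.

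The Hox genes that passed the test went both ways in detrusor. Between urothelium and detrusor 27.3% of the 22 Hox genes tested passed, against 16.4% of all genes tested. Of those that passed, Hoxb4 and Hoxb5 reached the array median only on urothelium and stroma arrays. Choosing genes for the test by their level favours a difference from detrusor in such genes, so these shares only describe the genes tested. Hoxd13, a gene of limb, gut and urogenital patterning, was higher in detrusor than in both other layers. Hoxb2, Hoxb3, Hoxb4 and Hoxb5, which lie next to each other in cluster B and are known from hindbrain and trunk patterning, were higher in urothelium than in detrusor, as was Hoxa9, a gene of the posterior trunk. No Hox gene passed the test between urothelium and stroma. The 2 Hox genes with the largest differences thus went opposite ways in detrusor, with Hoxd13 8.67-fold higher and Hoxb5 8.74-fold lower there than in stroma.

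To show the DNA just before the genes that passed the test, the 250 bases upstream of the annotated start are given for those with an entry in the RefSeq promoter table (build GRCm38.p6), 5′ to 3′ on the strand of the gene. Motifs found are in capitals.
Hoxd13, chr2:74667975-74668224, plus strand: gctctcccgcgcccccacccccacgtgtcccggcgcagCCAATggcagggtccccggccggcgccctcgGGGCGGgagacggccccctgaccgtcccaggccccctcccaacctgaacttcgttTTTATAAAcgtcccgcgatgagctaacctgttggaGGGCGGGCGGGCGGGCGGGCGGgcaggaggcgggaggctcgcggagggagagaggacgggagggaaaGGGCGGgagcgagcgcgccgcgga
Hoxb4, chr11:96318017-96318266, plus strand: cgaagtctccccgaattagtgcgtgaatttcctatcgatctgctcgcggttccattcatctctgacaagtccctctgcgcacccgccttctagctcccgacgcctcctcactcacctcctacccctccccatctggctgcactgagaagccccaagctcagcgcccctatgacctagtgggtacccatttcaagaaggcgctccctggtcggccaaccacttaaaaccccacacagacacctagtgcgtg
Hoxa9, chr6:52227371-52227620, minus strand: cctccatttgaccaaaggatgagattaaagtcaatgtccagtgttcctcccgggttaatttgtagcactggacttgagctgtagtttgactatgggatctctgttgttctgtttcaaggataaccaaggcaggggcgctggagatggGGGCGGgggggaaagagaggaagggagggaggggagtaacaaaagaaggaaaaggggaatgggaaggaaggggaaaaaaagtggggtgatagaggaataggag
The motifs searched on both strands were the TATA box core TATAAA, the GC box core GGGCGG, the CCAAT box core CCAAT, the HOX13-type sites CAATAAA and TCGTAAA, the MEIS core TGACAG and the HOX-PBX composite TGATNNAT. The letters CCAAT and CAATAAA can overlap by their shared CAAT. The Hoxd13 window held 7 copies of GGGCGG, of which 5 overlapped each other between 91 and 75 bases before the start, together with CCAAT at 212 bases and TATAAA on both strands at 126 and 124 bases. The Hoxa9 window held 1 copy of GGGCGG, at 103 bases, and the Hoxb4 window none of these motifs. Among 32841 such windows of all genes, 32.7% held GGGCGG, 33.9% CCAAT, 15.9% TGACAG, 12.4% TATAAA, 7.69% TGATNNAT, 4.21% CAATAAA and 0.478% TCGTAAA. The 24 Hox windows, for 22 Hox genes, held GGGCGG in 41.7%, CCAAT in 58.3%, TGACAG in 8.33%, TATAAA in 16.7%, TGATNNAT in 16.7%, CAATAAA in 4.17% and TCGTAAA in 4.17%. CG dinucleotides numbered 31 in the Hoxd13 window, 14 in that of Hoxb4 and 3 in that of Hoxa9, against a median of 6 over all windows and 12.5 over the Hox windows. A match of letters is a description and shows no binding.

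The files give 1 intensity per probe set and array, on a linear scale that the authors had set to the same trimmed mean on every array, so the values of 1 probe set can be compared between arrays but not those of different probe sets. Differences are on the scale log2(intensity + 39.31), which understates changes of dim genes. Genes were tested when at least 1 probe set had 3 or more arrays on which it lay at or above the median of the array, and a gene was called when its limma p, adjusted by Benjamini-Hochberg over all 13064 genes tested, was under 0.05. Of the 33 Hox genes, 22 were tested (6 of cluster A, 7 of B, 5 of C and 4 of D), and 11 had no probe set past the filter. Array medians ranged from 133.3 in urothelium 2 to 388.5 in stroma 3. Urothelium 2 had the lowest value of its layer for 20 of the 22 tested Hox genes, stroma 3 the highest of its layer for 13 and detrusor 3 the lowest of its layer for 16.

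The labelled layers could be checked on marker lists. The median log2 level of 15 urothelial markers was 13.87 to 15.07 in urothelium, 7.73 to 8.47 in detrusor and 9.94 to 12.76 in stroma. For 12 smooth muscle markers it was 9.37, 8.28 and 13.60 in urothelium 1 to 3, 15.01 to 15.59 in detrusor and 9.04 to 11.37 in stroma. Urothelium 3 thus carried smooth muscle transcripts, with a Myh11 (smooth muscle myosin) intensity of 51568 against 820 and 221 in urothelium 1 and 2. Stroma 3 carried urothelial ones, with a Upk1b (uroplakin) intensity of 64295 against 5850 and 1182 in stroma 1 and 2. The urothelial list median was 12.41, 9.94 and 12.76 in stroma 1 to 3, all above detrusor. Leaving out stroma 3 therefore does not leave stroma free of these transcripts. Actg2 had intensities of 40808, 4214 and 35233 in stroma 1 to 3. Of the fibroblast markers, Dcn, Vim and Col1a1 among them, the median of 12 was 11.97 to 13.36 in urothelium, 14.23 to 14.86 in detrusor and 14.39 to 15.36 in stroma, so these markers do not set stroma apart from detrusor. The 7 skeletal muscle markers measured of 9 had medians of 5.98 to 10.30 in urothelium, 11.75 to 13.72 in detrusor and 8.19 to 8.79 in stroma. Medians for 7 of 8 endothelial, 8 macrophage, 5 of 8 neural and 4 of 5 mesothelial markers lay between 8.86 and 11.29, 8.07 and 11.02, 8.11 and 9.57, and 6.87 and 12.96 over the 9 arrays, and the mesothelial list was highest in urothelium, at 12.25 to 12.96, against 6.87 to 8.17 in detrusor and 9.76 to 11.36 in stroma. The mesothelial list shares Upk3b with the urothelial list, and its Wt1 averaged 9.04 in urothelium, 6.46 in detrusor and 10.30 in stroma on the log2 scale. The part of these transcripts in the Hox differences was not tested, except by leaving out stroma 3 and urothelium 3, a pair chosen after levels were seen.

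In paralogue group 13, Hoxd13 had intensities of 1341, 279.6 and 1534 in urothelium 1 to 3, 9982, 10042 and 11941 in detrusor and 2349, 1018 and 696 in stroma. All 3 detrusor arrays lay above all 6 others, and within detrusor they were close together. The log2 difference was -3.59 ± 0.61 (SE, n = 3 per layer) between urothelium and detrusor, a level 12.0-fold lower in urothelium, with a limma adjusted p = 0.00326. It was 3.12 ± 0.61 between detrusor and stroma (adjusted p = 0.0182) and -0.47 ± 0.61 between urothelium and stroma (adjusted p = 0.726). In bulk tissue, fewer cells of a type and less RNA per cell cannot be told apart. Urothelium 3, with its smooth muscle transcripts at a list median of 13.60, had a Hoxd13 log2 level of 10.62, against 10.43 in urothelium 1, where that list stood at 9.37. In urothelium 2, where the list stood at 8.28, the Hoxd13 log2 level was 8.32. The part of smooth muscle transcripts in these levels was not tested. Leaving out stroma 3 and urothelium 3 gave -4.01 (adjusted p = 0.00306) for urothelium minus detrusor and 2.75 (adjusted p = 0.0496) for detrusor minus stroma.

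The Hoxd13 call between urothelium and detrusor held when any 1 array was left out, with differences from -4.01 to -2.85 and adjusted p up to 0.0189. Between detrusor and stroma the Hoxd13 difference stayed between 2.75 and 3.60, but the call was lost without detrusor 1 (3.16, adjusted p = 0.0505), detrusor 2 (3.16, adjusted p = 0.0659), detrusor 3 (3.03, adjusted p = 0.0878) or stroma 3 (2.75, adjusted p = 0.0554). Within postnatal day 1 the Hoxd13 difference was -4.98 for urothelium minus detrusor and 2.07 for detrusor minus stroma, and within day 2 it was -3.02 and 3.76. A second Hoxd13 probe set was dim, at 6.52, 5.54 and 9.81 in urothelium, 30.5, 118.1 and 52.0 in detrusor and 106.2, 9.35 and 130.2 in stroma. It had detrusor above urothelium too, by 1.10 on the log2 scale, but not above stroma, with a difference of -0.09.

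**Figure D1:**
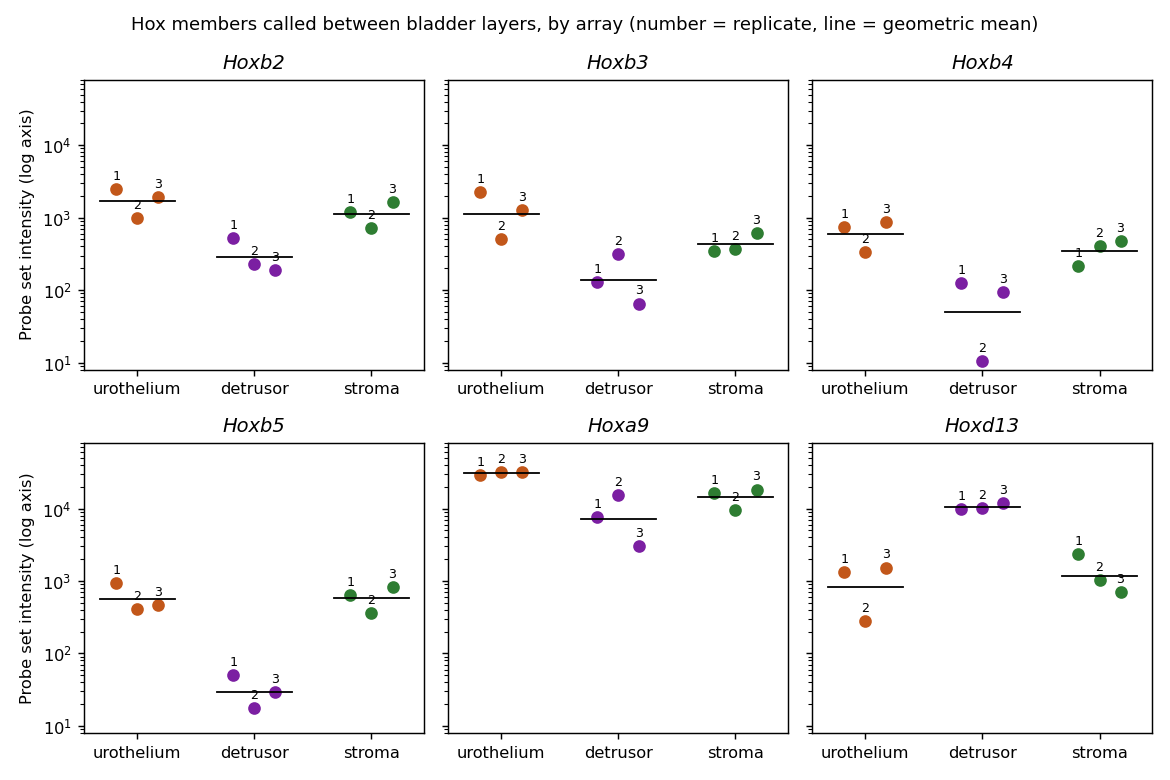
Intensity (log axis) of the 6 Hox genes called in at least 1 comparison, in urothelium, detrusor and stroma. Each point is 1 array with its replicate number and each line the geometric mean of 3. Hoxd13 in detrusor lies between 9982 and 11941, above the other layers, whereas Hoxb5 in detrusor lies between 17.5 and 49.8, below them.

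The other members of paralogue group 13 had no probe set past the filter. Hoxb13, known from the prostate, which also forms from the urogenital sinus, had intensities of 430.6, 548 and 168.4 in urothelium, 5.56, 49.1 and 9.03 in detrusor and 75.2, 106.8 and 52.9 in stroma. Every urothelium array was above every array of the other layers, and every detrusor array below every stroma array. Hoxb13 reached the array median on 2 arrays only and so was not tested in the filtered set. With no filter, over 18193 genes, its urothelium minus detrusor difference was 2.74 ± 0.50 (adjusted p = 0.00613), that of urothelium minus stroma 1.74 ± 0.50 (adjusted p = 0.127) and that of detrusor minus stroma -1.003 ± 0.50 (adjusted p = 0.305). Hoxa13, a gene of limb and urogenital patterning, was near or below the array median throughout, at 112.5, 128.1 and 62.6 in urothelium, 102.6, 274.2 and 142.6 in detrusor and 91.4, 103.6 and 357 in stroma. Its groups overlapped. With no filter its mean log2 level was 7.10 in urothelium, 7.65 in detrusor and 7.61 in stroma, the same order as for Hoxd13, but its differences of -0.55, -0.51 and 0.04 (urothelium minus detrusor, urothelium minus stroma, detrusor minus stroma) had adjusted p from 0.651 to 0.974. Hoxc13 did not exceed 58.3 on any array. A low value is not absence, since the files give no detection calls.

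Cluster B held 4 of the 6 genes called between urothelium and detrusor, Hoxb2 to Hoxb5. Hoxb5, which also acts in the gut wall and lung, had intensities of 924, 408 and 471 in urothelium, 49.8, 17.5 and 29.6 in detrusor and 646, 356 and 819 in stroma. Detrusor lay below both other layers on every array, and urothelium and stroma overlapped. The log2 difference was 3.10 ± 0.51 for urothelium minus detrusor (adjusted p = 0.00281), -0.03 ± 0.51 for urothelium minus stroma (adjusted p = 0.985, above 0 with quantile normalization or centred arrays) and -3.13 ± 0.51 for detrusor minus stroma (adjusted p = 0.00939). Since the detrusor values lie near the bottom of the scale, the size of the Hoxb5 difference depends on the pseudocount: it was 3.90 and 1.60 for urothelium minus detrusor, and -3.93 and -1.62 for detrusor minus stroma, with pseudocounts of 8.13 and 232.9. Without detrusor 3 the detrusor minus stroma call of Hoxb5 was lost (-3.11, adjusted p = 0.0502), and without any other single array it was kept, as it was without stroma 3 and urothelium 3 (-2.89, adjusted p = 0.0365). Urothelial markers were also lowest in detrusor, but their list median difference was 2.48 for urothelium minus stroma, where Hoxb5 had -0.03. The part of urothelial markers in the Hoxb5 result was not tested. The Hoxb5 log2 level was 9.91, 8.80 and 8.995 in urothelium, 6.48, 5.83 and 6.11 in detrusor and 9.42, 8.63 and 9.75 in stroma, beside urothelial list medians of 13.87, 15.07 and 14.07 in urothelium, 8.38, 7.73 and 8.47 in detrusor and 12.41, 9.94 and 12.76 in stroma.

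Hoxb2 had intensities of 2475, 991 and 1951 in urothelium, 525, 232.3 and 186.7 in detrusor and 1184, 715 and 1623 in stroma. Detrusor was again below both other layers without overlap. The urothelium minus detrusor difference of Hoxb2 was 2.41 ± 0.51 (adjusted p = 0.00905), and it stayed called without any single array, between 2.13 and 2.80. Detrusor minus stroma, at -1.82 ± 0.51, missed the threshold (adjusted p = 0.0623) and passed without stroma 2 (-2.13, adjusted p = 0.0452).

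Hoxb3 stood at 2236, 514 and 1277 in urothelium, 127.7, 314 and 65.3 in detrusor and 344, 374 and 618 in stroma. Its urothelium minus detrusor difference was 2.69 ± 0.62 (adjusted p = 0.0132). The Hoxb3 call was lost without urothelium 1 (2.22, adjusted p = 0.0581) or without detrusor 3 (2.28, adjusted p = 0.0632). A second Hoxb3 probe set was dim, at 229.7, 57.5 and 99.3 in urothelium, 95.3, 107.4 and 28.6 in detrusor and 303, 36.3 and 361 in stroma, and these groups overlapped.

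Hoxb4 had intensities of 743, 333 and 883 in urothelium, 124.4, 10.6 and 95.3 in detrusor and 214.4, 409.7 and 469.6 in stroma. Its urothelium minus detrusor difference was 2.64 ± 0.60 (adjusted p = 0.0128), and 3.27 or 1.48 with pseudocounts of 8.13 or 232.9. The Hoxb4 call was lost without urothelium 1, where the difference was 2.50 with an adjusted p = 0.0505. It was also lost when both stroma 3 and urothelium 3 were left out (2.39, adjusted p = 0.0540). The second Hoxb4 probe set did not reach its array's median on any array. For detrusor minus stroma, Hoxb3 (-1.36, adjusted p = 0.218) and Hoxb4 (-1.91, adjusted p = 0.0910) were not called, although in both the detrusor arrays lay below the stroma arrays without overlap.

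Day did not turn these differences round. Within postnatal day 1, with 1 urothelium and 2 detrusor arrays, the urothelium minus detrusor difference was 1.40 for Hoxb2, 1.19 for Hoxb3, 2.04 for Hoxb4 and 2.65 for Hoxb5. Within day 2, with 2 urothelium arrays and 1 detrusor array, it was 3.31, 4.05, 2.66 and 3.35 in the same order of genes. For detrusor minus stroma, Hoxb5 had -3.27 within day 1 and -3.08 within day 2.

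The remaining tested genes of cluster B, Hoxb1, Hoxb6 and Hoxb9, were not called. Hoxb6 had 760.1, 164.5 and 433 in urothelium, 143.2, 116.0 and 112.4 in detrusor and 310.0, 258.7 and 855 in stroma, with detrusor below both without overlap but no call (urothelium minus detrusor 1.39, adjusted p = 0.157, detrusor minus stroma -1.48, adjusted p = 0.178). Hoxb9 overlapped between all layers, at 338, 34.5 and 74.3 in urothelium, 157.5, 208.0 and 54.4 in detrusor and 295.5, 174.0 and 557 in stroma. Its urothelium minus detrusor difference was -0.18 ± 0.71. At the other end of the cluster Hoxb1, a hindbrain gene, overlapped too, with 0.26 ± 0.74 for urothelium minus detrusor. Hoxb7 was under the filter and did not exceed 129.6 on any array. With no filter it went the other way, with 0.89 for detrusor minus stroma (limma adjusted p = 0.299) and -0.29 for urothelium minus detrusor (adjusted p = 0.790).

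**Figure D2:**
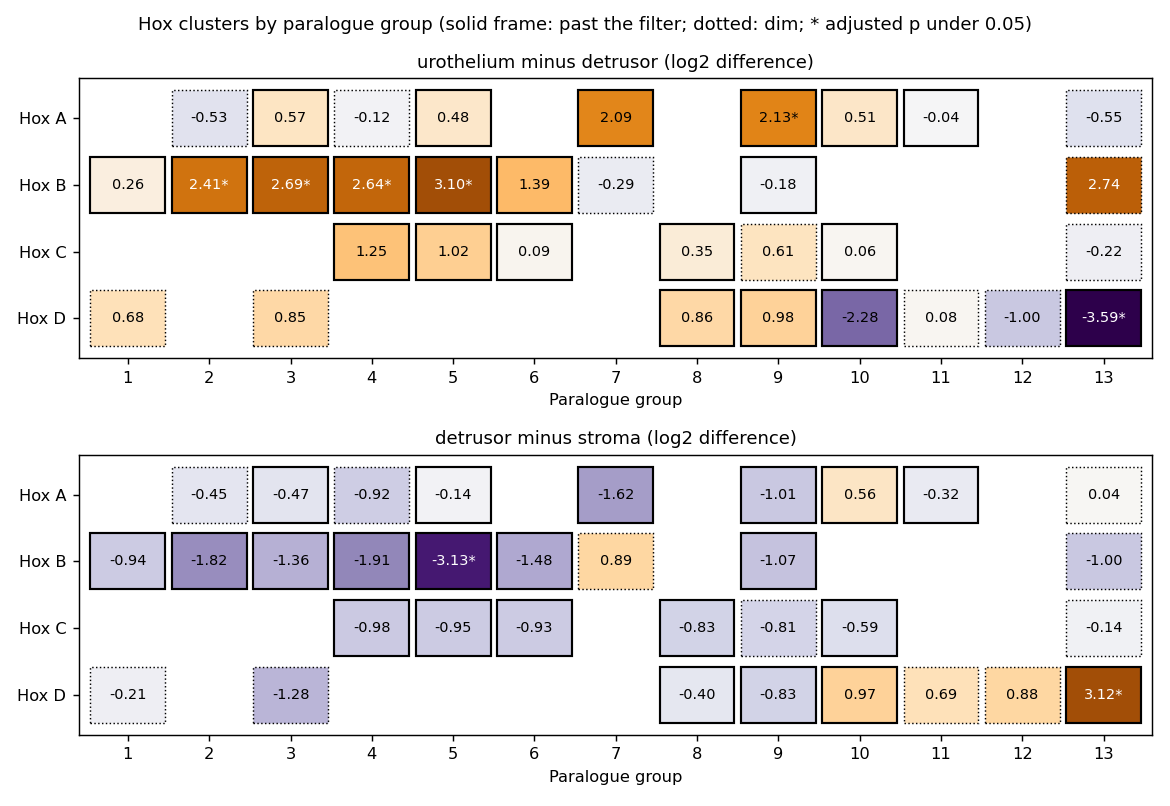
Log2 difference of each of the 33 Hox genes by cluster (rows) and paralogue group (columns), for urothelium minus detrusor above and detrusor minus stroma below. Orange marks values above 0 and purple values below 0, solid frames genes past the filter, dotted frames dim genes fitted with no filter, and asterisks adjusted p under 0.05 in the filtered set. In the upper grid the values 2.41, 2.69, 2.64 and 3.10 of Hoxb2 to Hoxb5 stand side by side and Hoxd13 is at -3.59.

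In cluster A, Hoxa9 had intensities of 29416, 32386 and 31982 in urothelium, 7648, 15297 and 3025 in detrusor and 16587, 9547 and 18289 in stroma. Urothelium was the highest layer on every array, and detrusor and stroma overlapped. The log2 difference was 2.13 ± 0.49 for urothelium minus detrusor (4.39-fold, adjusted p = 0.0134), 1.13 ± 0.49 for urothelium minus stroma (adjusted p = 0.241) and -1.01 ± 0.49 for detrusor minus stroma (adjusted p = 0.250). Hoxa9 kept its urothelium minus detrusor call without any single array, with 1.53 without detrusor 3 and 2.69 without detrusor 2 as the ends of the range. Within day 1 the urothelium minus detrusor difference of Hoxa9 was 1.58, and within day 2 it was 3.33. The second Hoxa9 probe set showed a smaller urothelium minus detrusor difference: it had 749, 527 and 585 in urothelium, 439.7, 719 and 296.4 in detrusor and 645, 795 and 902 in stroma, a log2 difference of 0.40 with overlapping arrays. On this probe set stroma was highest on average, with urothelium minus stroma at -0.32, so the order of these layers depended on the probe set. With the mean of both probe sets the urothelium minus detrusor difference was 1.27 and was not called (adjusted p = 0.0544).

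Hoxa10, a gene of the uterus and the urogenital tract, had intensities of 6004, 4839.6 and 7783 in urothelium, 3271, 7685 and 3077 in detrusor and 3193, 1649 and 4522 in stroma. Urothelium was above stroma on every array and overlapped with detrusor. Neither urothelium minus stroma (1.07 ± 0.46, adjusted p = 0.233) nor urothelium minus detrusor (0.51 ± 0.46, adjusted p = 0.512) nor detrusor minus stroma (0.56 ± 0.46, adjusted p = 0.498) passed. The second Hoxa10 probe set overlapped between all layers, from 108.5 to 1009.7 in urothelium, 127.7 to 609 in detrusor and 130.8 to 512 in stroma.

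Hoxa7 had intensities of 453, 52.8 and 314 in urothelium, 19.3, 18.7 and 21.5 in detrusor and 46.3, 45.7 and 783 in stroma. Detrusor was the lowest layer on every array, yet the spread within urothelium and stroma was wide and the urothelium minus detrusor difference of 2.09 ± 0.94 was not called (adjusted p = 0.164), although it was with array weights (2.58, adjusted p = 0.0149). Hoxa3, Hoxa5 and Hoxa11, the last known from kidney and uterus, had urothelium minus detrusor differences of 0.57, 0.48 and -0.04, with adjusted p from 0.449 to 0.967. Another probe set past the filter had a larger difference for Hoxa3 (1.35, arrays without overlap) and for Hoxa5 (1.23, arrays overlapping). Hoxa3 probe sets under the filter had 0.96 and 0.42. Hoxa2 and Hoxa4 were under the filter.

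In cluster D, Hoxd8 had intensities of 8559, 5219.6 and 5199 in urothelium, 3486, 3555 and 3107 in detrusor and 4484, 4099 and 4812 in stroma. The 3 layers did not overlap, with urothelium first, stroma second and detrusor last, but no difference was called: urothelium minus detrusor was 0.86 ± 0.29 (adjusted p = 0.0706) and detrusor minus stroma -0.40 ± 0.29 (adjusted p = 0.452). On the second Hoxd8 probe set urothelium was also highest on average, whereas detrusor was above stroma by 0.51, so the order of these layers depended on the probe set. Hoxd9 had a urothelium minus detrusor difference of 0.98 ± 0.52 (adjusted p = 0.248) and overlapping arrays.

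Hoxd10, known from motor neurons and limb, had intensities of 3571, 5.51 and 1689 in urothelium, 2456, 3499 and 3555 in detrusor and 932, 4814 and 854 in stroma. The value of 5.51 in urothelium 2 set the mean of its layer. The urothelium minus detrusor difference of -2.28 ± 1.32 (adjusted p = 0.288) fell in size to -0.34 (adjusted p = 0.819) without urothelium 2. Hoxd12 was dim, at 3.96, 4.15 and 27.0 in urothelium, 44.9, 78.0 and 61.8 in detrusor and 10.6, 22.6 and 12.3 in stroma. As in Hoxd13, every detrusor array of Hoxd12 lay above every other array, but with no filter the differences of -1.001 (urothelium minus detrusor, adjusted p = 0.0664) and 0.88 (detrusor minus stroma, adjusted p = 0.153) were not called. Hoxd1, Hoxd3 and Hoxd11 were under the filter as well.

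No member of cluster C was called in any comparison. Hoxc6, the tested gene of cluster C with the smallest standard error, had 369, 192.6 and 350.0 in urothelium, 291.7, 313.5 and 223.3 in detrusor and 842, 348 and 582 in stroma. Stroma was above detrusor on every array for Hoxc6, with a detrusor minus stroma difference of -0.93 ± 0.46 (adjusted p = 0.261). Another Hoxc6 probe set past the filter had -1.54 and a further probe set under it -1.40, both without overlap between these layers. Hoxc4 varied most within layers, at 1374, 8.27 and 289.7 in urothelium, 419.7, 31.2 and 11.7 in detrusor and 24.0, 1734 and 72.4 in stroma. Hoxc5 (332.6, 10.9 and 803 in urothelium, 183.9, 49.1 and 56.2 in detrusor, 91.5, 450.1 and 172.2 in stroma) and Hoxc10 (1363, 42.1 and 872 in urothelium, 667, 355 and 291.0 in detrusor, 485, 809 and 667.0 in stroma) overlapped between all layers, as did Hoxc8. For urothelium minus detrusor Hoxc5 had 1.02, whereas its other probe sets, below the array median on every array, had -0.07 and -0.76. The standard errors of the cluster C differences reached 1.45 on the log2 scale, so differences of the size seen in cluster B would not have been detectable for Hoxc4.

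Counted over the 22 Hox genes tested, 6 were called between urothelium and detrusor (27.3%), 5 higher and 1 lower in urothelium, where 16.4% of all genes tested were called, 8.37% higher and 8.05% lower. Arrays did not overlap for 9 Hox genes (40.9%), against 39.3% of all genes. Between detrusor and stroma 2 were called (9.09%), Hoxd13 higher and Hoxb5 lower in detrusor, where 5.84% of all genes were called, 3.12% higher and 2.72% lower, and 9 Hox genes had detrusor below stroma on every array against 15.3% of all genes. Between urothelium and stroma 0 of 22 were called by limma, the only tool run, and 2 Hox genes, Hoxa9 and Hoxa10, had an unadjusted p under 0.05. There 0.23% of all genes were called. The calls are few. On their tested probe sets, Hoxa3, Hoxa7, Hoxb4, Hoxb5, Hoxb6 and Hoxc5 reached the array median only on urothelium and stroma arrays. The filter favours a difference from detrusor in such genes, so these shares only describe the genes tested. With no filter, 7 of the 33 Hox genes were called between urothelium and detrusor (21.2%, against 10.5% of all genes), the seventh being Hoxb13.

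The median difference of the 22 tested Hox genes was 0.71 for urothelium minus detrusor, beside -0.01 for all genes tested, and -0.93 for detrusor minus stroma, beside -0.16. The first was 0.44 without urothelium 1 and 1.39 without urothelium 2, and the second -0.49 without detrusor 3 and -0.54 without stroma 2. By cluster, the urothelium minus detrusor median was 0.54 in A, 2.41 in B, 0.35 in C and -0.71 in D, and the detrusor minus stroma median was -0.39, -1.48, -0.93 and 0.29. Leaving out 1 array kept the urothelium minus detrusor median of B between 2.12 and 2.78 and that of A between 0.40 and 0.96, its highest value being without detrusor 2. That of C was -0.06 without urothelium 1, -0.04 without detrusor 3 and 1.56 without urothelium 2, and that of D was -1.52 without urothelium 1 and 0.32 without urothelium 2. The D median was also above 0 with no filter (0.38 over 8 genes) and with array weights (0.05), so its sign was not stable. For detrusor minus stroma the ranges without 1 array were -0.58 to -0.21 in A, lowest in size without stroma 3, -1.78 to -1.12 in B, -1.38 to -0.37 in C, lowest in size without detrusor 3, and 0.10 to 0.67 in D, smallest without stroma 3 and largest without stroma 2. All 7 tested genes of cluster B and all 5 of cluster C had lower means in detrusor than in stroma, also with quantile normalization and with arrays centred on their medians (4 of 5 in cluster C without stroma 2), whereas the cluster A median turned to 0.02 with centred arrays. With no filter 8 of the 9 genes of cluster B, all but Hoxb7, and all 7 of cluster C were lower in detrusor. Centring put the median of all genes at 0.25 for detrusor minus stroma and at 0.31 for urothelium minus stroma, where it was -0.12 before. Taken relative to all genes, the cluster B median for detrusor minus stroma was -1.31 either way. By paralogue number, the urothelium minus detrusor median was 1.83 for the 6 tested genes of groups 1 to 4, 0.94 for the 8 of groups 5 to 8 and 0.01 for the 8 of groups 9 to 13. Over all members with no filter these medians were 0.77, 0.86 and 0.01, for 10, 9 and 14 genes, so the order of the low-numbered and middle groups depended on the filter. The tested genes of groups 1 to 4 were Hoxa3, Hoxb1 to Hoxb4 and Hoxc4, so most were of cluster B. For the tested genes of groups 9 to 13 the urothelium minus detrusor differences ran from -3.59 to 2.13. Differences between clusters or paralogue groups were not tested.

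**Figure D3:**
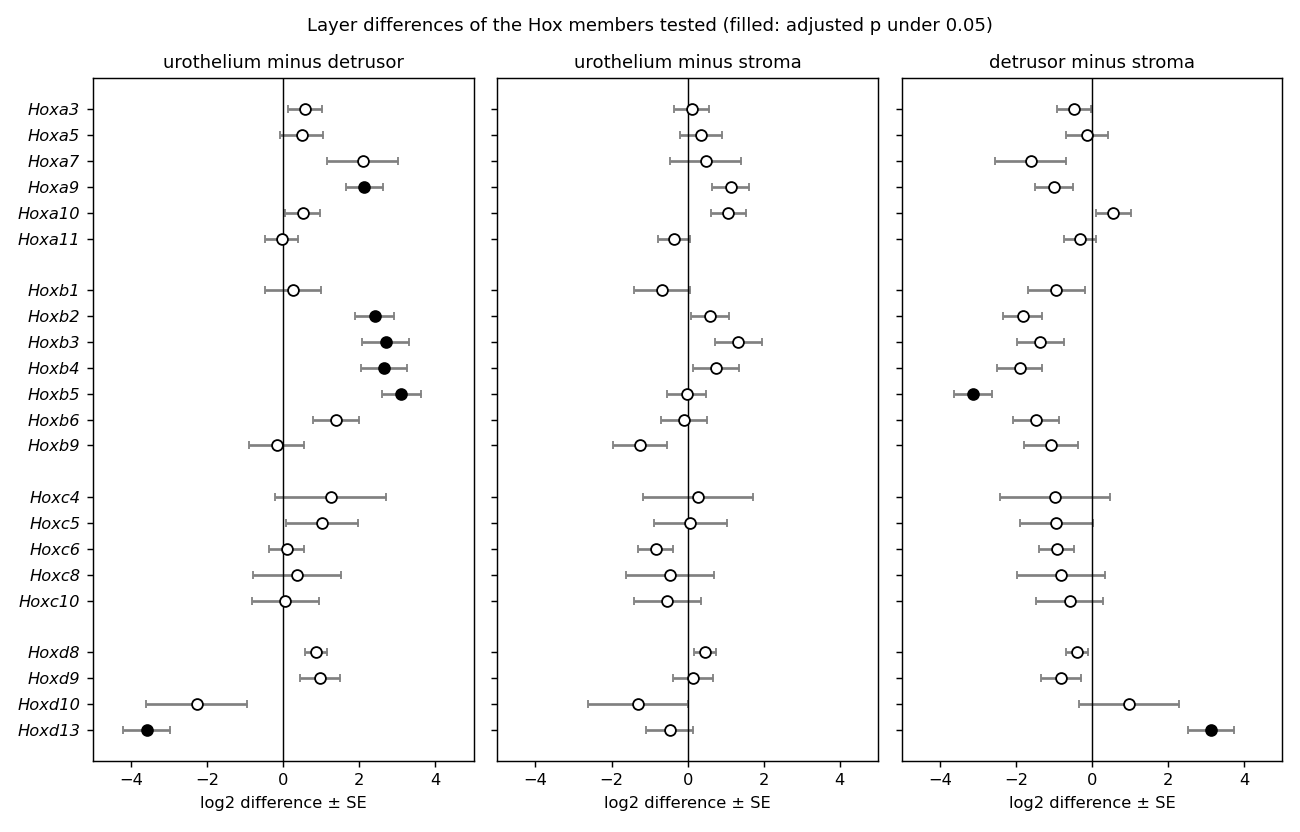
Log2 difference ± SE of the 22 tested Hox genes, from top to bottom by cluster and paralogue group, for urothelium minus detrusor, urothelium minus stroma and detrusor minus stroma. Filled points have an adjusted p under 0.05, and the middle panel has none.

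Postnatal day was compared with layer as a covariate, and 0 of 22 Hox genes were called between day 2 and day 1, with 1 at an unadjusted p under 0.05. In all, limma called 2 genes of 13064 (0.0153%). The gene with that p was Hoxd10 (day 2 minus day 1 log2 2.39, unadjusted p = 0.0255), whose lowest array, urothelium 2, was from day 1.

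Genes that act with or on Hox genes are given by list, beside the share of all genes called between urothelium and detrusor (8.37% higher and 8.05% lower). Of the Hox cofactors, 10 of 12 were tested, and 0 were higher and 4 lower in urothelium than in detrusor, with a list median of -1.57. These were Meis1 (-1.59 ± 0.36, adjusted p = 0.0121) and Pbx3 (-1.73 ± 0.33, adjusted p = 0.00572), whose products bind DNA beside Hox proteins, the related Pknox2 (-2.35 ± 0.38, adjusted p = 0.00275) and the zinc finger gene Tshz1 (-1.56 ± 0.41, adjusted p = 0.0242). Pknox2 was also lower in urothelium than in stroma (-2.37, adjusted p = 0.0437), and Meis1 was higher in detrusor than in stroma (1.54, adjusted p = 0.0321). Without stroma 3 and urothelium 3, 6 cofactors were lower in urothelium than in detrusor, Tshz1 no longer among them. In that setting 3 were lower in urothelium than in stroma, and 0 were called between detrusor and stroma. Of all 13064 genes, 986 were then lower in urothelium than in detrusor (1051 with all arrays) and 223 lower than in stroma (22 with all arrays). Between detrusor and stroma 428 were called (763 with all arrays).

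Chromatin regulators that keep Hox genes off or on, the Polycomb and trithorax genes, had 25 of 27 members tested. Ezh2, the Polycomb histone methyltransferase, was higher in urothelium than in detrusor (1.23 ± 0.29, adjusted p = 0.0148) and lower in detrusor than in stroma (-1.16 ± 0.29, adjusted p = 0.0417). Cbx6 rose (0.79, adjusted p = 0.0476) and Phc3 fell (-1.34, adjusted p = 0.0240) in urothelium relative to detrusor, so 2 rose and 1 fell, with a list median of 0.06, and the 3 of 25 called are a smaller share than the 16.4% of all genes. Without stroma 3 and urothelium 3, Ezh2 and Phc3 were called between urothelium and detrusor, as were 1884 of all 13064 genes. No gene of the list was then called between detrusor and stroma, where 428 of all genes were.

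Retinoic acid is a known inducer of Hox genes, low-numbered ones first. Of 15 retinoid and Cdx genes 8 were tested, and 2 rose and 0 fell in urothelium relative to detrusor, where 8.37% of all genes rose, namely Aldh1a2, which makes retinoic acid (2.29 ± 0.42, adjusted p = 0.00444), and the receptor gene Rxra (1.79 ± 0.34, adjusted p = 0.00562). Aldh1a2 was lower in detrusor than in stroma (-2.73, adjusted p = 0.00785), and these calls held without stroma 3 and urothelium 3. The list median was 1.48 for urothelium minus detrusor.

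Of the genes just outside the clusters, 8 of 11 were tested. Skap2, beyond the low-numbered end of cluster A (2.27 ± 0.36, adjusted p = 0.00239), and Lnpk, beyond Hoxd13 (1.80 ± 0.43, adjusted p = 0.0161), were higher in urothelium than in detrusor, and 0 were lower, where 8.37% of all genes were higher and 8.05% lower. The list median was -0.35. Lnpk was not called without stroma 3 and urothelium 3.

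**Figure D4:**
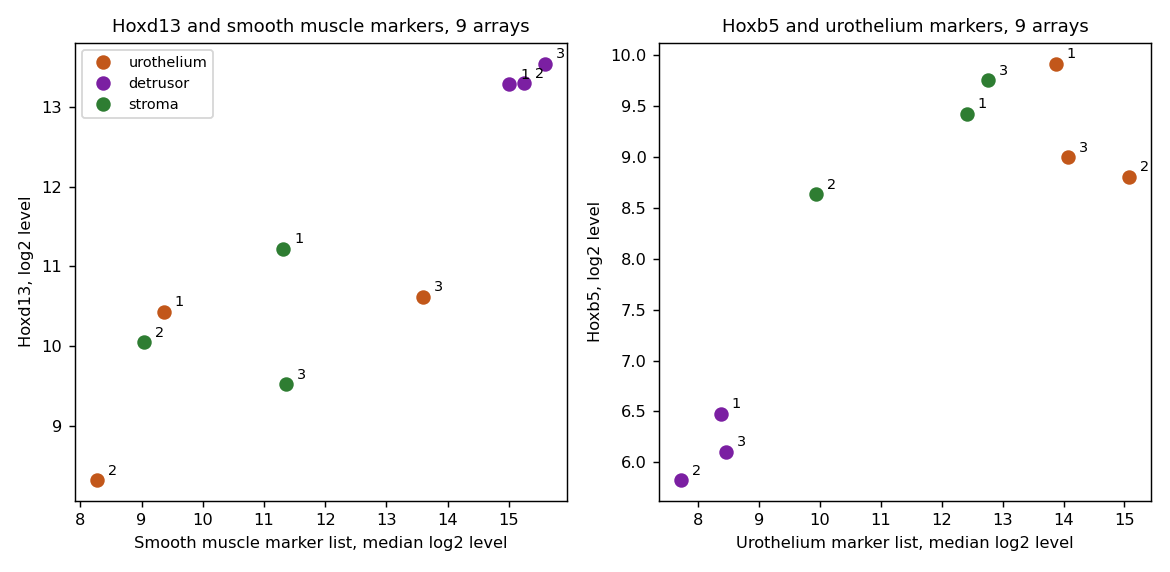
Log2 level of Hoxd13 against the median log2 level of 12 smooth muscle markers (left), and of Hoxb5 against that of 15 urothelial markers (right). Each point is 1 of 9 arrays with its replicate number. Urothelium 1, 2 and 3 have smooth muscle medians of 9.37, 8.28 and 13.60 with Hoxd13 levels of 10.43, 8.32 and 10.62. The 3 stroma arrays have Hoxb5 levels of 8.63 to 9.75.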

How the data were processed

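Layers of newborn mouse bladder were captured by laser from frozen sections, and total RNA was amplified in 2 rounds, labelled with biotin and hybridised to 1 array per sample, per the labels' protocols. Each deposited file holds 1 linear intensity per probe set, which the authors computed with GCOS, per the submitters' processing notes. For GCOS, neither algorithm nor target value is given in the sources used here. On every array the values averaged 1500 once the lowest and highest 2% were trimmed, and they were used as scaled. Of 45101 probe sets, 64 were controls, 34945 carried 1 gene symbol, 932 carried several and 9160 none. Of those with several symbols, 3 name 2 Hox genes each and were not used for members.

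A pseudocount of 39.31, the 20th percentile over all arrays, was added before log2 was taken. The probe set with the highest mean among those past the filter stood for its gene. The test was limma 3.58.1 under R 4.3.3, with lmFit and a trended eBayes, in 1 fit over 9 arrays with layer as the only term, and postnatal day with layer as a covariate. The number of arrays limits the precision: the median standard error of a difference was 0.45 log2 units. The scripts were tested on simulated data with known changes. The Hox genes and all lists were chosen with earlier results of these data known. The genes named with the value of every array were Hoxd13, Hoxa13, Hoxa10, each Hox gene called, and the 2 tested genes per cluster with the largest difference in each comparison. Hoxb6, Hoxb13, Hoxd8 and Hoxd12 were added after their values were seen. From the other lists, called genes were named. Alternatives were 2 other normalizations, 2 other pseudocounts (8.13 and 232.9), 2 other filters, 2 other probe set rules, array weights, day as a covariate, and leaving out arrays.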

Additional observations from a re-analysis of the deposited data

How the results depend on the processing

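No paired analysis was possible because the labels carry no replicate numbers shared between layers. The 6 Hox genes called between urothelium and detrusor became 10 with array weights. Over all 13064 genes tested, the calls there rose from 2145 to 3785 with these weights. Leaving out 1 array gave 4 to 6 Hox calls between urothelium and detrusor (1172 to 2435 over all genes). Between detrusor and stroma it gave 0 to 3 (105 to 851 over all genes), against 2 with all arrays. It gave 0 to 0 Hox calls for urothelium minus stroma (0 to 528 over all genes) and for day (2 to 4 over all genes). With centred arrays, quantile normalization, either pseudocount or day as a covariate the same 6 and 2 genes were called. With no filter 7 Hox genes were called between urothelium and detrusor (1912 of 18193 over all genes), and 5 with the mean of probe sets (2090 of 13064 over all genes). Centring also moved the split of all calls between detrusor and stroma to 589 higher and 144 lower, from 408 and 355, and between urothelium and stroma to 192 and 31, from 8 and 22 (42 and 51 with quantile normalization). Some differences that were not called changed sign, and the cause was not tested. Hoxb5, -0.03 for urothelium minus stroma, was 0.25 with quantile normalization, 0.39 with centred arrays, 0.17 with array weights, 0.33 without stroma 3 and urothelium 3, and -0.37 to 0.21 without 1 array. Hoxb9 for urothelium minus detrusor was 0.57 with array weights, 0.0084 without stroma 3 and urothelium 3, and -0.86 to 0.32 without 1 array. Hoxc10 was -0.091 with the low pseudocount, -0.35 with day as a covariate, -0.42 without stroma 3 and urothelium 3 and -0.73 to 1.33 without 1 array for urothelium minus detrusor, and for urothelium minus stroma 0.30 with array weights and -1.32 to 0.73 without 1 array. Hoxc4 for urothelium minus stroma was -0.37 without stroma 3 and urothelium 3 and -0.89 to 1.74 without 1 array, and for detrusor minus stroma -1.95 to 0.49 without 1 array. Hoxc5 for urothelium minus stroma was -0.22 with the low pseudocount, -0.89 without stroma 3 and urothelium 3, and -0.80 to 1.23 without 1 array. Hoxc6 for urothelium minus detrusor was -0.024 without stroma 3 and urothelium 3 and -0.059 to 0.35 without 1 array. For urothelium minus stroma Hoxd10 was 0.12 with array weights and -2.54 to 0.63 without 1 array, Hoxd13 -0.89 to 0.26 and Hoxa7 -0.074 to 1.56 without 1 array. Genes near the bottom of the scale, such as Hoxb4, Hoxb5 and Hoxa7 in detrusor, have sizes that depend on the pseudocount.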

Other observations

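Probe sets for antisense transcripts of the clusters, which are not Hox genes by the rule used, were read separately after their values were seen. Hoxb5os, named as an antisense transcript of Hoxb5, had intensities of 7554, 282.3 and 3654 in urothelium, 263.7, 39.1 and 178 in detrusor and 469.7, 1313 and 5624 in stroma. As for Hoxb5, its detrusor arrays lay below all arrays of both other layers. Its difference was 3.59 ± 1.14 for urothelium minus detrusor (limma adjusted p = 0.0553) and -3.19 ± 1.14 for detrusor minus stroma (adjusted p = 0.129), and neither was called. Hoxd3os1 and Hoxa11os overlapped between all layers, with urothelium minus detrusor differences of 1.04 (adjusted p = 0.405) and -0.32 (adjusted p = 0.788).

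A probe set that names both Hoxb7 and Hoxb8 overlapped between urothelium, at 811, 139.6 and 473, and detrusor, at 269, 211.8 and 91.6. In stroma it had 85.0, 57.0 and 235.2.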
